A study of Mus musculus and Homo sapiens with 12 samples.

Results

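The 9 genes described here encode enzymes, or enzyme subunits, of the tricarboxylic acid (TCA) cycle: CS, IDH2, IDH3A, IDH3B, OGDH, DLST, SUCLG1, FH and MDH2. They were taken by symbol from 2 tables of gene expression, a human table of 11513 genes and a mouse table of 10430 genes, and all 9 were present in both, with fumarase named FH in human and Fh1 in mouse. The study measured RNA by sequencing in 12 libraries, to compare transcripts after blocking NOTCH1 in a leukaemia cell line and after changing dietary valine in leukaemic mice. In the human arm, KOPTK1 cells, an established human line of T-ALL, T-cell acute lymphoblastic leukaemia, were kept for 72 h with Compound E, a gamma-secretase inhibitor (gSI) that stops the cleavage releasing active NOTCH1, or with the solvent DMSO, with 2 libraries each. In the mouse arm, C57BL/6 mice that had received NOTCH-delta E tumours as a secondary transplant spent 3 weeks on 1 of 4 diets, labelled 0, 0.4, 0.8 and 8 g/kg valine, of which 8 g/kg was the control diet. GFP-positive leukaemic cells were sorted from spleen, and each diet had 1 library named TALL2 and 1 named TALL3, names whose meaning the labels do not give. The treatment protocol describes the intermediate diets as valine supplied in drinking water, so the diets are used here as an ordered series under their labelled names. All mouse groups carry NOTCH-delta E tumours, and KOPTK1 is a single line, so no group here is free of leukaemia. No label states separate cultures or animals for the replicates, so p-values measure only the spread between these libraries.

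The TCA cycle runs in the mitochondrial matrix. It joins acetyl-CoA to oxaloacetate, releases the carbon as carbon dioxide and passes the electrons, as NADH and reduced flavin, to the respiratory chain, where complex I takes those of NADH. Citrate synthase (CS) makes citrate. Isocitrate is oxidised by the NAD-dependent enzyme, in which IDH3A is the catalytic subunit and IDH3B a further subunit, or by the NADP-dependent IDH2. OGDH and DLST are the first and second components of the 2-oxoglutarate dehydrogenase complex, which makes succinyl-CoA, the same compound as the end product of valine breakdown. SUCLG1 is the alpha subunit of succinyl-CoA ligase, FH hydrates fumarate to malate, and MDH2 oxidises malate back to oxaloacetate.

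Mouse promoters are shown for 4 of the enzymes on whose values the results below turn. Ogdh is the member whose human counterpart alone rose in KOPTK1, and Idh2 varied most between mouse libraries. Idh3b had all 6 restricted-diet libraries below both controls without passing the test, and Mdh2 had the highest FPKM of the members in mouse. RefSeq held a promoter for 8 of the 9 mouse members in build GRCm38.p6, and Idh3a was not among them. Each line gives the 250 bases before the transcription start, 5′ to 3′ on the gene's strand, with matches on either strand to the GC box GGGCGG, the CCAAT box CCAAT and the cyclic AMP response element (CRE) TGACGTCA in capitals. The positions are chr11:6291409-6291658 on the plus strand for Ogdh, whose table entry lists 6 starts and of which the one nearest the annotated gene start was used, chr7:80115351-80115600 on the minus strand for Idh2, chr2:130284452-130284701 on the minus strand for Idh3b, and chr5:135778399-135778648 on the plus strand for Mdh2. In the GENCODE M21 annotation of GRCm38 the genes span chr11:6291633-6356642 (Ogdh), chr7:80094846-80115392 (Idh2), chr2:130279309-130284547 (Idh3b) and chr5:135778480-135790398 (Mdh2). Human positions are not analysed here.
Ogdh: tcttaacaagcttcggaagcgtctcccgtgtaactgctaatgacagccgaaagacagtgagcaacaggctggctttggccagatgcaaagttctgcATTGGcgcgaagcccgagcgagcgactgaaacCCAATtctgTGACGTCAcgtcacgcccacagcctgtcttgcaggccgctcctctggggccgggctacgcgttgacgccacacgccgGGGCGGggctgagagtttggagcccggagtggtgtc
Idh2: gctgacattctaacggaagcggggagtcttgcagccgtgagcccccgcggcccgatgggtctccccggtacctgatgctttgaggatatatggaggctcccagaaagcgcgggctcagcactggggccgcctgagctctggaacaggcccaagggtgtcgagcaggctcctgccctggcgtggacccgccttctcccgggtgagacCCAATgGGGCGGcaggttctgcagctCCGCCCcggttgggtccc
Idh3b: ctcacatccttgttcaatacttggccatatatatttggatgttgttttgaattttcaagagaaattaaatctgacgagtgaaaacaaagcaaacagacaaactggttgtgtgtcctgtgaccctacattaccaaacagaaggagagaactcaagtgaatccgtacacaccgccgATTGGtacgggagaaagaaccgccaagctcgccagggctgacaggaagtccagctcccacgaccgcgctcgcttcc
Mdh2: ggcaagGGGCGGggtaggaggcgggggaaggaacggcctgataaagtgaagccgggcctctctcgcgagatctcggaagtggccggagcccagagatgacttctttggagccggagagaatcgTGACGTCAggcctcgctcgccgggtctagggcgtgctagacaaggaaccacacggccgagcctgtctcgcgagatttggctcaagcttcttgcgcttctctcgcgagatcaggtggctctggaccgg
The GC box was present in 6 of the 8 member promoters and in 32.7% of all 32851 promoters of the table, and the CCAAT box in 5 of 8 and 33.9%. The GC content of the 8 ranged from 46.8% (Idh3b) to 67.2% (Idh2), against a median of 52.4% over all promoters. These shares were not matched for GC content. The full CRE was present in Ogdh, 113 bases before the RefSeq start, and in Mdh2, 127 bases before it, and in 1.55% of all promoters. By the GENCODE spans above, the Mdh2 match lies inside the gene and the Ogdh match before it. All of the windows printed reach into their GENCODE genes. These 3 motifs were chosen after the sequences had been seen. None of the 8 held the E-box CACGTG, the NRF1 motif, the ETS motif CCGGAAG, the ESRRA motif TGACCTTG or the CEBP-ATF element TGATGNAA, which 6.02%, 3.74%, 6.91%, 1.33% and 3.45% of all promoters held. No 2 of the motifs searched overlapped in the sequences printed, and a match is a description of letters only.

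The values are FPKM, fragments scaled to gene length and to library size, as deposited. Reads recovered from the steps between FPKM values came to 28566081 and 42245079 in the gSI libraries, and 22939478 and 25302350 in the DMSO libraries. The 8 mouse libraries held 14222895 to 37687253. Each member had at least 777 recovered reads in every human library and at least 1212 in every mouse library. As a check of the treatments, HES1, a direct NOTCH target, stood at 0.0253 and 0.0431 FPKM with gSI, against 6.72 and 6.18 FPKM with DMSO. Asns, asparagine synthetase, a target of the amino acid stress response, stood at 69.2 and 84.6 FPKM at 0 g/kg and at 2.02 and 2.90 FPKM at 8 g/kg. On the intermediate diets the TALL2 and TALL3 libraries were unequal, at 47.3 and 17.1 FPKM at 0.4 g/kg and 5.585 and 47.5 FPKM at 0.8 g/kg. Markers of T cells (12 of 12 listed) were present in every library of both tables. In KOPTK1 their summed level was 239 and 253 FPKM with gSI, against 414 and 399 FPKM with DMSO. None of the 12 neutrophil or 8 macrophage markers was listed in the human table, and 1 of 12 erythroid markers was. The 2 listed B-cell markers of 8, CD79A and CD79B, summed to 4.21 and 4.68 FPKM with gSI, against 10.4 and 10.2 FPKM with DMSO.

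With NOTCH1 blocked in KOPTK1, 7 of the 9 enzyme mRNAs fell, OGDH rose and DLST did not pass the test. The test was limma on log2(FPKM + 1), with Benjamini-Hochberg adjustment over the 6679 genes whose mean reached 1 FPKM and a threshold of 0.05. On that scale, differences of genes with low FPKM come out smaller than their true ratio. The inhibitor moved much of the transcriptome: 53.1% of the genes tested passed, 22.8% higher and 30.3% lower, so 8 of 9 members passing is to be read against that share. The median log2 difference was -0.25 over the members, against -0.03 over all genes tested. KOPTK1 is a single line, so its T-cell and B-cell markers are transcripts of the same leukaemic cells. Their sums were lower with gSI in the same libraries, and their relation to these results was not tested. Bulk RNA does not tell a change in every cell from a change in a part of the cells.

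IDH2 showed the largest fall among the members. It had 8.67 and 9.35 FPKM with gSI, against 14.9 and 15.1 FPKM with DMSO, a ratio of means of 0.599. The log2 difference was -0.68 (SE 0.0792, limma, Benjamini-Hochberg adjusted p = 6.00e-08), and 3.02% of all genes tested fell as far or further. IDH3B, of the NAD-dependent enzyme, had 8.80 and 8.95 FPKM with gSI, against 12.4 and 11.4 FPKM with DMSO (log2 difference -0.39, SE 0.0790, limma adjusted p = 0.000178). Its catalytic partner IDH3A was close to the spread of its own replicates, with 1.43 and 1.39 FPKM with gSI, against 1.926 and 1.598 FPKM with DMSO (log2 difference -0.20, limma adjusted p = 0.0147). The difference between IDH2 and the IDH3 subunits was not tested. IDH1, the cytosolic NADP-dependent enzyme, named after its values were seen, was under the filter, at 1.09 ± 0.0423 FPKM with gSI and 0.739 ± 0.141 FPKM with DMSO (SD, n = 2 each), and was not tested either.

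OGDH, the first component of the 2-oxoglutarate dehydrogenase complex, was the single member that rose. It had 2.01 and 2.05 FPKM with gSI, against 1.21 and 1.22 FPKM with DMSO, and the replicates of each group lay within 0.04 FPKM of each other. The ratio of means was 1.67 and the log2 difference 0.45 (SE 0.0620, limma adjusted p = 8.39e-07). Of all genes tested, 5.20% rose as far or further on that scale. The added 1 shrinks a difference at this low FPKM, so this share is not to be ranked against that of IDH2. The low FPKM goes with a recovered gene length of 102490 bp for OGDH, against 19459 bp for IDH2. Recovered reads of OGDH were 6302 and 9399 with gSI and 2671 and 3192 with DMSO. Those of IDH2 were 5162 and 8148 with gSI and 6258 and 7538 with DMSO. A long recovered length lowers FPKM, so it bears on both the shrinkage and the 1 FPKM filter. Voom on recovered reads gave log2 differences of 0.78 for OGDH and -0.69 for IDH2. DLST, the second component of the same complex, did not pass the test: it had 6.72 and 6.88 FPKM with gSI, against 7.88 and 7.56 FPKM with DMSO. The DLST groups did not overlap, but the log2 difference of -0.16 (SE 0.0767) missed the threshold at a limma adjusted p of 0.0802; it passed with median-of-ratios scaling (limma adjusted p = 0.042) and with voom on recovered reads (adjusted p = 0.0368). DLD, the third component, did not pass either (log2 difference -0.15, limma adjusted p = 0.081), and the difference between OGDH and these components was not tested.

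In the later steps, SUCLG1 had 1.64 and 1.79 FPKM with gSI, against 2.23 and 2.23 FPKM with DMSO (log2 difference -0.25, limma adjusted p = 0.00252). FH had 2.26 and 2.23 FPKM with gSI, against 3.17 and 2.99 FPKM with DMSO (log2 difference -0.33, limma adjusted p = 0.000314). MDH2 had 7.77 and 8.42 FPKM with gSI, against 9.86 and 9.83 FPKM with DMSO (log2 difference -0.25, limma adjusted p = 0.00762). All of these fell, with ratios of means of 0.769, 0.728 and 0.822. At the entry of the cycle, CS had 6.22 and 6.41 FPKM with gSI, against 7.67 and 7.56 FPKM with DMSO (log2 difference -0.24, limma adjusted p = 0.0108). For all 9 members the gSI and DMSO libraries did not overlap, 8 lower and 1 higher; the same held for 76.2% of all genes tested, 42.4% lower and 33.9% higher. Leaving out gSI replicate 1 left 4 members past the threshold, IDH2, IDH3B, OGDH and FH, and leaving out gSI replicate 2 left 6, without CS and IDH3A. Leaving out DMSO replicate 1 left 7, without IDH3A, which also missed the threshold with no filter on low values (limma adjusted p = 0.0616).

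**Figure D1:**
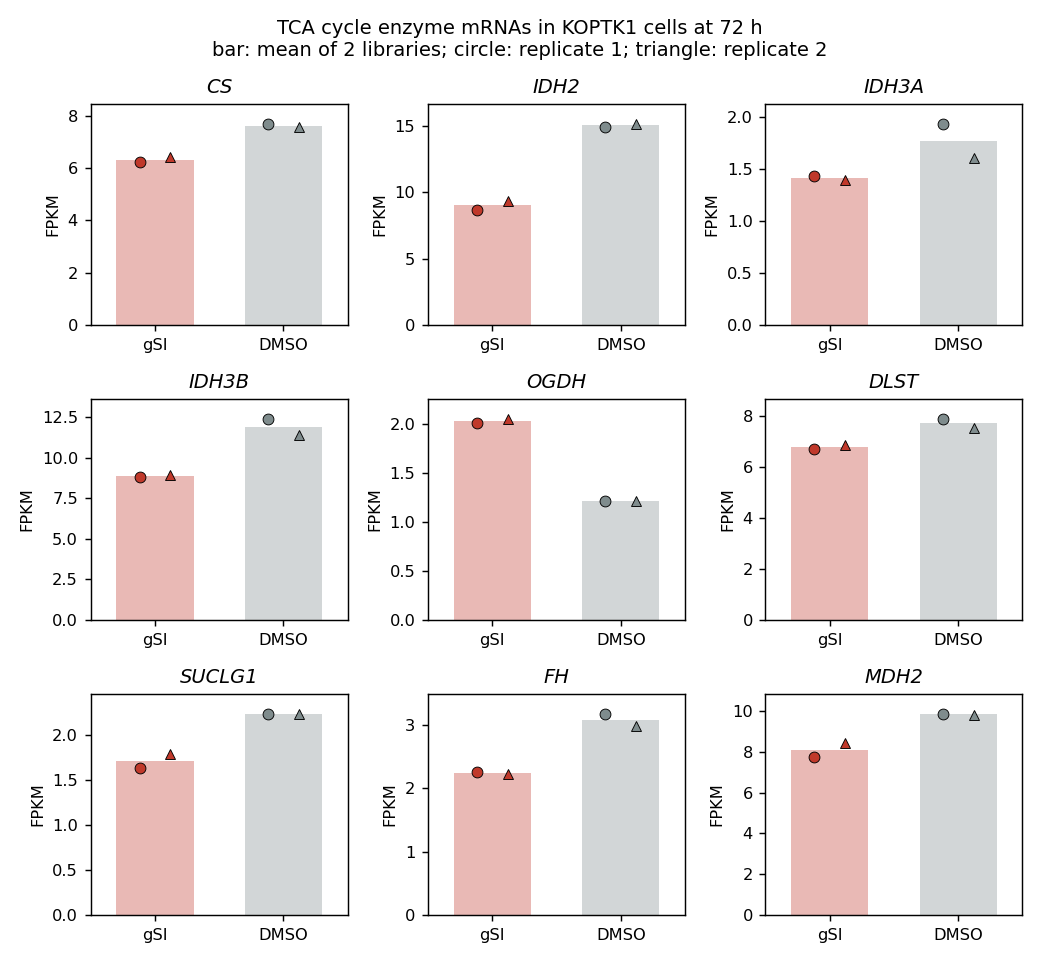
FPKM of each enzyme mRNA in KOPTK1 cells after 72 h with gSI (red) or DMSO (grey); bars are the mean of 2 libraries and the circle and triangle are replicates 1 and 2. OGDH is higher with gSI, at 2.01 and 2.05 FPKM against 1.21 and 1.22 FPKM, and the other 8 are lower. The vertical scales differ between panels.

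Most of the other cycle enzymes tested in KOPTK1 also had lower mRNA with the inhibitor. Of 13 other cycle enzymes and cytosolic counterparts, 7 were tested: 5 fell, 1 rose and DLD did not pass, with a median difference of -0.22. Over all genes tested, 30.3% passed lower and 22.8% higher, and the median was -0.03. IDH3G, the gamma subunit of the NAD-dependent isocitrate dehydrogenase, averaged 4.33 ± 0.196 FPKM with gSI and 5.83 ± 0.104 FPKM with DMSO (SD, n = 2 each; log2 difference -0.36, limma adjusted p = 0.000266). SDHD, a membrane anchor of succinate dehydrogenase, fell by 0.24 on the log2 scale (limma adjusted p = 0.0015), and SDHA, its flavoprotein, by 0.25 (limma adjusted p = 0.0023).

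The counts in the next lists are to be read against all genes tested, of which 22.8% passed higher and 30.3% lower (median -0.03). Among 8 tested genes of pyruvate entry, 1 rose, 2 fell and 5 did not pass (median -0.04). PDPR, the regulatory subunit of pyruvate dehydrogenase phosphatase, rose by 0.43 on the log2 scale (limma adjusted p = 2.74e-05), while MPC2, of the mitochondrial pyruvate carrier, fell by 0.28 (adjusted p = 0.00199) and DLAT, the second component of pyruvate dehydrogenase, fell by 0.22 (adjusted p = 0.00948). Of 9 tested genes for reactions that feed or drain the cycle, 2 rose, 3 fell and 4 did not pass (median -0.12). GOT1, cytosolic aspartate aminotransferase, rose by 0.30 on the log2 scale (limma adjusted p = 0.00118), while GLUD1, glutamate dehydrogenase, fell by 0.28 (adjusted p = 0.00247). Of 8 tested genes on the route from valine to succinyl-CoA, 1 rose, 3 fell and 4 did not pass (median -0.06). BCAT1, the cytosolic branched-chain aminotransferase, averaged 0.863 ± 0.0569 FPKM with gSI and 1.69 ± 0.0243 FPKM with DMSO (SD, n = 2 each; limma adjusted p = 1.72e-08). BCKDK, the kinase that holds branched-chain ketoacid dehydrogenase inactive, fell by 0.40 on the log2 scale (limma adjusted p = 2.49e-06), and ACAD8, isobutyryl-CoA dehydrogenase, rose by 0.46 (adjusted p = 2.99e-06). SDHA, GLUD1 and PDPR have near-identical copies in the human genome between which counting could split reads, so their values are uncertain.

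In the mouse tumour cells no member passed the test on any restricted diet, nor did any of the 9943 genes tested (0.0% called). By limma without adjustment, p was under 0.05 for 1025 genes (10.3%) on the 0 g/kg diet, 1059 (10.7%) on 0.4 g/kg and 433 (4.35%) on 0.8 g/kg, each against the control diet, and voom on the recovered reads also called 0. The 3 comparisons share the control libraries. The members' median log2 difference was -0.07 on the 0 g/kg diet, where that of all genes tested was -0.01, -0.06 on the 0.4 g/kg diet, where it was -0.05, and -0.04 on the 0.8 g/kg diet, where it was also -0.04.

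Mouse FPKM are set side by side between genes below, since the recovered gene lengths, 3180 bp at the median, are near those of transcripts. For the members these lengths were 0.289 (Dlst) to 0.777 (Fh1) of the joined length of all annotated exons. The order of the members below depends on these lengths, and other lengths were not tried. In the human table the median was 29956 bp, and levels of different human genes are not compared. Over the 8 mouse libraries, Mdh2 had the highest value of the members at 281 ± 18.0 FPKM, followed by Cs at 182 ± 14.8 FPKM and Ogdh at 131 ± 11.3 FPKM (SD, n = 8). Idh2 averaged 103 ± 23.1 FPKM, Dlst 87.4 ± 6.67 FPKM, Idh3b 70.7 ± 4.55 FPKM, Fh1 60.3 ± 4.28 FPKM, Idh3a 54.8 ± 3.80 FPKM and Suclg1 34.95 ± 2.57 FPKM. The ranges of neighbours in this order were separate for Mdh2 and Cs, for Cs and Ogdh, and for Idh3a and Suclg1, and overlapped for the rest. The coefficient of variation over the 8 libraries was 6.41% to 8.58% for 8 members and 22.5% for Idh2, against a median of 12.6% over all genes tested. By mean FPKM the members stood at or above 76.8% (Suclg1) to 99.1% (Mdh2) of the genes tested. Their variation was not compared with that of genes of like level. Fh1 shares 5255 bp with Kmo on the opposite strand; the library kit marks strand, but whether the counting used it is not given in the sources used here.

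Ogdh was the member with the smallest p. It had 141 and 141 FPKM at 0 g/kg in TALL2 and TALL3, 143 and 136.5 FPKM at 0.4 g/kg, and 127 and 127 FPKM at 0.8 g/kg, against 113 and 119 FPKM at 8 g/kg. All 6 restricted-diet libraries lay above both control libraries, as they did for 4.73% of all genes tested. The log2 difference from 8 g/kg was 0.28 at 0 g/kg (SE 0.0726, limma adjusted p = 0.371), 0.27 at 0.4 g/kg (adjusted p = 0.397) and 0.13 at 0.8 g/kg (adjusted p = 0.998). Along the ranked diets the fitted slope was 0.10 per step of falling valine (SE 0.0226, unadjusted p = 0.00223, limma adjusted p = 0.226), and 12.3% of genes had an unadjusted slope p under 0.05. Neither these differences nor the slope passed.

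Idh3a and Idh3b, of the NAD-dependent isocitrate dehydrogenase, were lower than the control on every restricted diet without passing the test. Idh3a had 51.8 and 52.3 FPKM at 0 g/kg, 55.4 and 54.1 FPKM at 0.4 g/kg and 48.7 and 57.8 FPKM at 0.8 g/kg, against 58.0 and 60.2 FPKM at 8 g/kg. Idh3b had 72.3 and 62.2 FPKM at 0 g/kg, 71.1 and 69.7 FPKM at 0.4 g/kg and 66.5 and 72.9 FPKM at 0.8 g/kg, against 74.8 and 76.1 FPKM at 8 g/kg. For both, all 6 restricted-diet libraries lay below both controls, as they did for 11.4% of all genes tested. The third subunit gene, Idh3g, named after its values were seen, overlapped with the control, at 96.0 ± 13.7 FPKM at 0 g/kg and 106 ± 0.741 FPKM at 8 g/kg (SD, n = 2 each; limma adjusted p = 0.658). At 0 g/kg the log2 difference was -0.18 for Idh3a (limma adjusted p = 0.566) and -0.17 for Idh3b (adjusted p = 0.586). Taking each diet alone, 1 member was higher and 2 were lower without overlap on every restricted diet; among all genes tested the shares were 19.1% higher and 22.9% lower on the 0 g/kg diet, 16.9% higher and 31.8% lower on 0.4 g/kg, and 10.6% higher and 22.5% lower on 0.8 g/kg.

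Idh2 lay on opposite sides of the 8 g/kg library of the same name in TALL2 and TALL3, names that are not known to pair the libraries. In TALL2 it had 147 FPKM at 0 g/kg, 114 FPKM at 0.4 g/kg and 102 FPKM at 0.8 g/kg, against 85.2 FPKM at 8 g/kg. In TALL3 it had 80.3 FPKM at 0 g/kg, 75.3 FPKM at 0.4 g/kg and 104 FPKM at 0.8 g/kg, against 113 FPKM at 8 g/kg. Every restricted TALL2 library was above the TALL2 library at 8 g/kg and every restricted TALL3 library below the TALL3 one, and the log2 difference at 0 g/kg was 0.14 with an SE of 0.327 (limma adjusted p = 0.906).

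For the other 5 members the restricted and control libraries overlapped on every diet. Cs had 189 and 160 FPKM at 0 g/kg, 184 and 184 FPKM at 0.4 g/kg and 183 and 171 FPKM at 0.8 g/kg, against 210 and 176 FPKM at 8 g/kg. Dlst, the partner of Ogdh, had 84.9 and 87.6 FPKM at 0 g/kg, 88.1 and 83.1 FPKM at 0.4 g/kg and 76.1 and 97.9 FPKM at 0.8 g/kg, against 87.0 and 94.4 FPKM at 8 g/kg. Their differences at 0 g/kg, -0.15 and -0.07 on the log2 scale, were close to or under the standard errors of 0.125 and 0.129. Suclg1 had 35.5 and 30.3 FPKM at 0 g/kg, 36.7 and 36.8 FPKM at 0.4 g/kg and 37.3 and 33.0 FPKM at 0.8 g/kg, against 37.1 and 33.0 FPKM at 8 g/kg. Fh1 had 61.2 and 53.7 FPKM at 0 g/kg, 64.4 and 62.1 FPKM at 0.4 g/kg and 56.0 and 64.3 FPKM at 0.8 g/kg, against 56.4 and 64.0 FPKM at 8 g/kg. Mdh2 had 289 and 255 FPKM at 0 g/kg, 284 and 294 FPKM at 0.4 g/kg and 254 and 300.4 FPKM at 0.8 g/kg, against 275 and 295 FPKM at 8 g/kg. Over these 3 enzymes no log2 difference from the control diet exceeded 0.09 in size, each under its standard error.

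**Figure D2:**
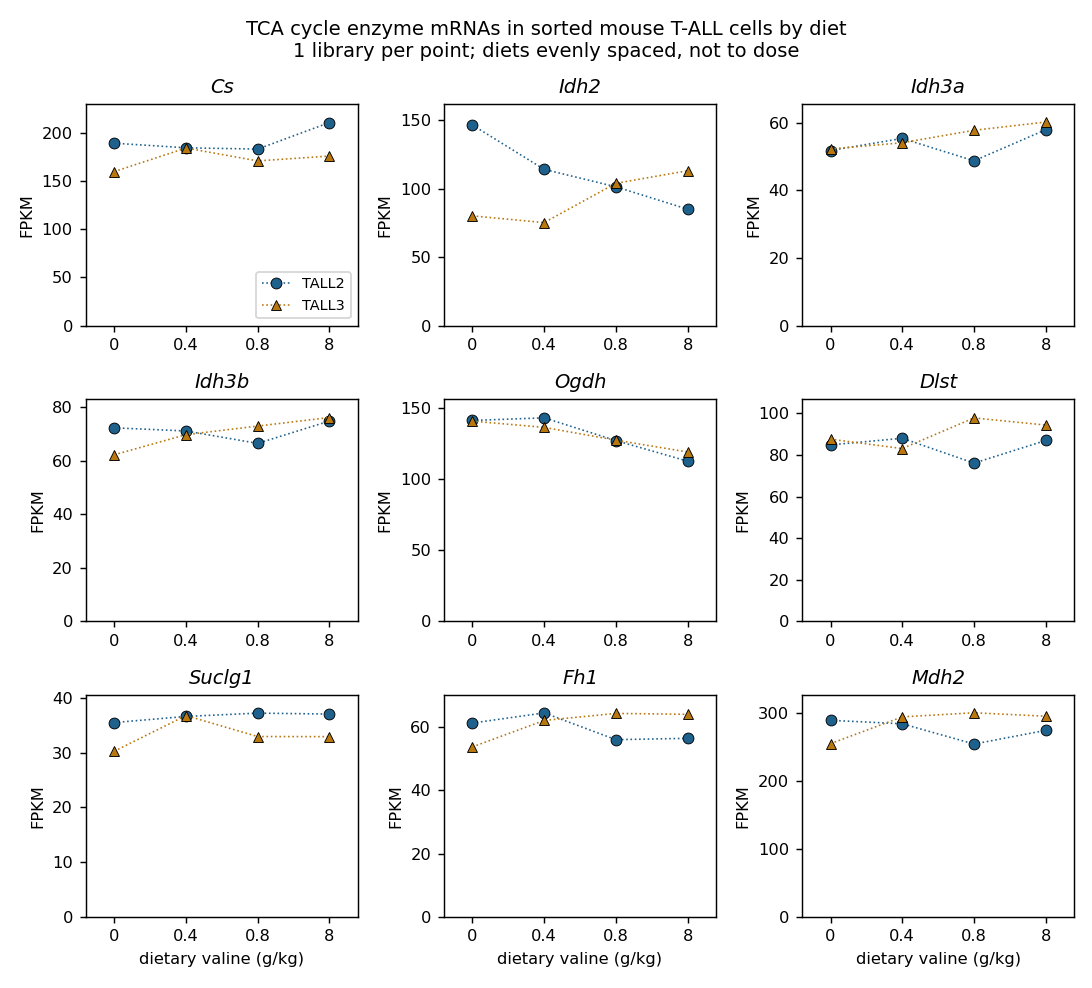
FPKM of each enzyme mRNA in sorted mouse T-ALL cells by labelled dietary valine (g/kg, evenly spaced), with TALL2 as circles and TALL3 as triangles, 1 library per point. Ogdh is above both 8 g/kg libraries on every restricted diet, and the Idh2 lines of TALL2 and TALL3 cross. The vertical scales start at 0 and differ between panels.

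**Figure D3:**
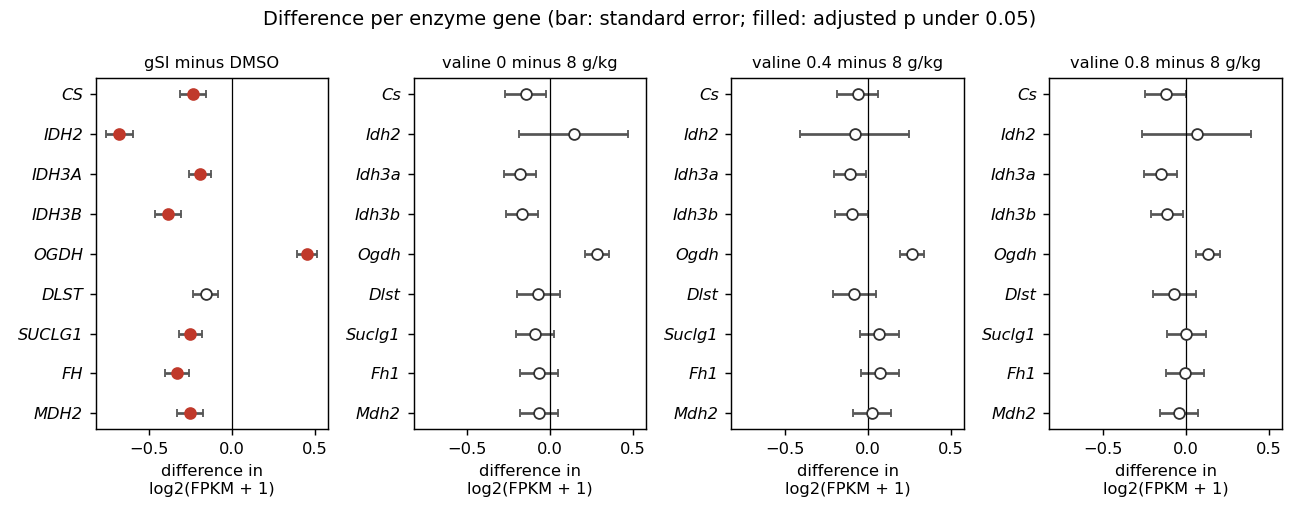
Difference in log2(FPKM + 1) for each enzyme mRNA, with its standard error, for gSI minus DMSO and for each restricted diet minus 8 g/kg; filled points have an adjusted p under 0.05. OGDH is at 0.45 with gSI and Ogdh at 0.28, 0.27 and 0.13 at 0, 0.4 and 0.8 g/kg, and no mouse point is filled.

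Markers of other blood cells differed between diets in the sorted mouse cells. The summed level of 11 listed neutrophil markers of 12 was 535 and 322 FPKM at 0 g/kg, 12.2 and 73.4 FPKM at 0.4 g/kg and 13.1 and 12.01 FPKM at 0.8 g/kg, against 0.949 and 10.3 FPKM at 8 g/kg, where 4 and 1 of them were at 0. The 9 listed erythroid markers of 12 summed to 2.21 and 5.21 FPKM at 0 g/kg, 56.2 and 39.7 FPKM at 0.4 g/kg and 40.2 and 28.3 FPKM at 0.8 g/kg, against 99.3 and 269 FPKM at 8 g/kg. The 4 listed macrophage markers of 8 summed to 34.8 and 33.4 FPKM at 0 g/kg, against 6.00 and 11.97 FPKM at 8 g/kg. The 1 listed B-cell marker of 8, Cd74, stood at 11.5 and 73.0 FPKM at 0 g/kg, 5.34 and 11.6 FPKM at 0.4 g/kg and 3.56 and 8.50 FPKM at 0.8 g/kg, against 1.498 and 13.7 FPKM at 8 g/kg. The 12 T-cell markers summed to 3059 to 3780 FPKM over the 8 libraries. In both TALL2 and TALL3, neutrophil markers were highest and erythroid markers lowest at 0 g/kg; their part in the enzyme values was not tested.

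Of the other cycle enzymes, 12 were tested in mouse, and all 12 were lower at 0 g/kg, with a median log2 difference of -0.20; 52.2% of all genes tested were lower. None passed, and 7 of the 12 were lower with no overlap with the control libraries, as were 22.9% of all genes tested. On the 0.4 g/kg diet 8 of the 12 were lower and 4 higher, with a median log2 difference of -0.07, against -0.05 over all genes tested, of which 59.0% were lower. On the 0.8 g/kg diet 10 were lower and 2 higher, with a median of -0.10, against -0.04 over all genes tested, of which 60.0% were lower. Sdhd averaged 103 ± 10.3 FPKM at 0 g/kg and 123 ± 7.47 FPKM at 8 g/kg (SD, n = 2 each; limma adjusted p = 0.487). Suclg2 and Sucla2, the GTP- and ATP-linked partners of Suclg1, had log2 differences of -0.42 and -0.27 (limma adjusted p = 0.506 and 0.514). At 0.4 g/kg Aco1, the cytosolic aconitase, had a log2 difference of -0.35 (limma adjusted p = 0.418), Suclg2 one of -0.40 and Sdhd one of -0.14. At 0.8 g/kg the log2 differences of the named genes were Aco1 at -0.20, Suclg2 at -0.30 and Sdhc at -0.14.

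The largest differences near the cycle were in enzymes that withdraw or exchange its intermediates, and these did not pass either. Pck2, mitochondrial phosphoenolpyruvate carboxykinase, averaged 27.1 ± 0.654 FPKM at 0 g/kg, 11.4 ± 2.44 FPKM at 0.4 g/kg and 13.7 ± 6.43 FPKM at 0.8 g/kg, against 3.86 ± 0.492 FPKM at 8 g/kg (SD, n = 2 each; limma adjusted p = 0.121 at 0 g/kg). Gpt2, mitochondrial alanine aminotransferase, averaged 8.67 ± 0.628, 5.10 ± 2.18 and 4.66 ± 3.38 FPKM on the same diets, against 1.49 ± 0.0529 FPKM (adjusted p = 0.358 at 0 g/kg). Bcat1 averaged 8.21 ± 0.863, 8.57 ± 1.98 and 6.11 ± 1.01 FPKM, against 2.70 ± 0.752 FPKM (adjusted p = 0.202 at 0 g/kg). In KOPTK1, PCK2 averaged 3.85 ± 0.111 FPKM with gSI and 3.84 ± 0.0208 FPKM with DMSO (SD, n = 2 each). By log2 difference, the other genes named by the rule at 0 g/kg were Slc25a11, the oxoglutarate carrier, at 0.32, Pdk3 at 0.22, Pdpr at -0.37 and Pdk1 at -0.62, of the pyruvate dehydrogenase regulators, and Dbt at -0.30 and Bckdha at -0.40, of branched-chain ketoacid dehydrogenase, with limma adjusted p from 0.371 to 0.594. At 0.4 g/kg they were, again by log2 difference, Pdpr at -0.32, Pdk1 at -0.54, Pdha1 at -0.23, Got2 at -0.39, Acad8 at -0.32 and Bckdha at -0.47. At 0.8 g/kg they were, by log2 difference, Pdk1 at -0.50, Pdpr at -0.23, Pcx at 0.32, Slc25a12 at -0.24, Acad8 at -0.19 and Bckdha at -0.29. Median log2 differences at 0 g/kg were -0.09 for pyruvate entry (12 tested), -0.08 for feeding and draining reactions (13 tested) and -0.08 for the valine route (16 tested).

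**Figure D4:**
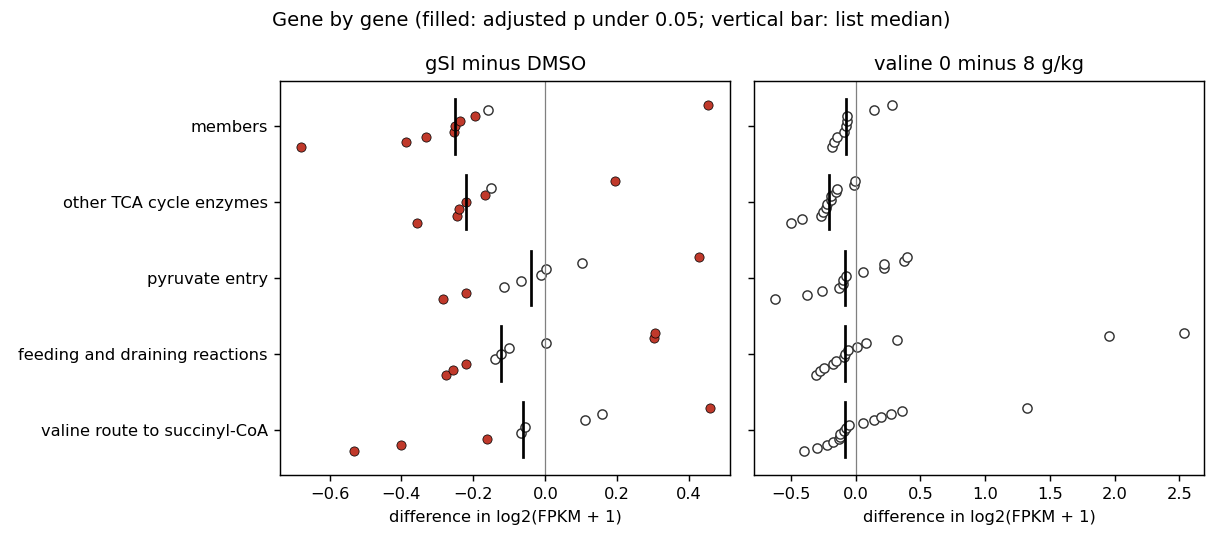
Each point is 1 gene's difference in log2(FPKM + 1), for gSI minus DMSO (left) and 0 minus 8 g/kg valine (right), by list; filled points have an adjusted p under 0.05 and vertical bars are list medians. The members' median is -0.25 with gSI and -0.07 at 0 g/kg, and the points furthest right at 0 g/kg are Pck2, Gpt2 and Bcat1.

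Across the 8 mouse libraries, the genes whose profile was most like the mean standardised profile of the members were Nek1 (Pearson r 0.974), Atp5b (0.961), Larp7 (0.944), Zfp706 (0.944) and Prpf38a (0.934), among 7918 genes whose mean reached 5 FPKM. The points share their libraries and depth, so these values are descriptions. Among the members themselves, r with that mean was 0.89 for Mdh2, 0.89 for Idh3b and 0.88 for Fh1. It was 0.64 for Idh3a, 0.54 for Idh2, 0.51 for Dlst, 0.40 for Cs and 0.32 for Suclg1, and lowest for Ogdh at -0.13. Each member is part of that mean, which by itself raises its r, so these values do not measure how far the members move together.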

How the data were processed

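RNA of 12 libraries was sequenced, after RNeasy purification and a library kit that keeps strand, per the labels' protocols. STAR, edgeR, hg19 and mm10 are named in the submitters' processing notes, with no version or role for any of them. The authors deposited FPKM values, with a table for each species, and the tables were analysed apart. Which gene model and counter made them is not given in the sources used here. Genes averaging 1 FPKM or more entered a two-sided limma 3.58.1 test (R 4.3.3) of log2(FPKM + 1) that models the trend of variance on mean, and p-values were adjusted by Benjamini-Hochberg over every gene tested. The 4 diets were fitted together, and a slope was fitted over their ranks. Whole read numbers were recovered from the steps between FPKM values. They imply gene lengths that are whole, to 0.01 bp, in 95.75% of human genes and 99.88% in mouse; to reach whole lengths, reads were scaled up in 489 human and 13 mouse genes, so reads are estimates. Replicate libraries differed beyond counting noise in every group (chi-square over degrees of freedom 5.74 to 93.6). Read recovery and fit were tested on simulated data. The simulation of the fit was revised after its outcome was seen, to take its spread from the genes tested and to run over several random draws. False calls in simulated KOPTK1 data lay slightly above the nominal share on average, and well above it in some draws, so calls near the threshold, such as CS and IDH3A, are less certain. Named genes are all members, up to 3 genes per neighbouring list and comparison with the smallest p, the 5 genes most like the mean member profile, and the treatment checks. A few items that this rule or the lists name are not reported here. The 318 mouse genes without a symbol were named from a reference list. Alternatives changed the pseudocount, the filter, the scaling, the trend, the replicate block and the libraries; voom on recovered reads, and fits without both 0.4 g/kg libraries, were added after seeing the data. The members and lists were chosen with earlier results of these data known.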

Additional observations from a re-analysis of the deposited data

Results flagged for a closer look

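Idh2 differed in direction between the mouse libraries named TALL2 and those named TALL3. In TALL2 its log2 FPKM ratio to the 8 g/kg library of the same name was 0.785 at 0 g/kg, 0.424 at 0.4 g/kg and 0.253 at 0.8 g/kg. In TALL3 the ratios were -0.497, -0.588 and -0.122 on the same diets. Each value rests on 1 library over 1 library, and the difference between the names was not tested. Among all 9943 mouse genes tested, 416 (4.18%) had all 3 ratios of one sign in TALL2 and of the other sign in TALL3.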

How the results depend on the processing

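In KOPTK1, OGDH passed the threshold in all 12 settings in which it was tested, with log2 differences of 0.18 to 0.78, and IDH2, IDH3B and FH passed in all of theirs, as many as 13. SUCLG1 passed in 11 of 12 and MDH2 in 12 of 13, CS in 11 of 13, IDH3A in 8 of 12 and DLST in 2 of 13. The members' median was -0.298 with a pseudocount of 0.1, -0.157 with a pseudocount of 5 and -0.183 with quantile scaling. Without a filter 5374 genes passed, against 3547 as reported, and with a filter at 5 FPKM 1139 passed, among them 4 of the 5 members still tested; these settings test more or fewer genes. Leaving out 1 library at a time, with the lone library of that group assumed to vary like the others, gave 4 to 8 members past the threshold, 2207 genes (without gSI replicate 2) to 3555, and a median of -0.293 to -0.21.

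On the diets no member passed in any setting run. Against 8 g/kg at 0.8 g/kg, Fh1 turned to 0.0431 with median-of-ratios scaling, 0.0336 with quantile scaling and 0.0457 with voom, and Mdh2 to 0.00328 with median-of-ratios scaling and 0.00278 with voom; the cause was not tested. Leaving out 1 library at a time moved signs at 0 g/kg for Idh2 (-0.288 to 0.574), Suclg1 (-0.201 to 0.0228), Fh1 (-0.159 to 0.027), Mdh2 (-0.159 to 0.023) and the median (-0.174 to 0.0228). At 0.4 g/kg it did so for Cs (-0.192 to 0.0671), Idh2 (-0.378 to 0.216), Suclg1 (-0.0135 to 0.152), Fh1 (-0.017 to 0.162) and Mdh2 (-0.0302 to 0.0749). At 0.8 g/kg it did so for Cs (-0.251 to 0.00795), Idh2 (-0.139 to 0.268), Dlst (-0.249 to 0.11), Suclg1 (-0.082 to 0.0894), Fh1 (-0.1003 to 0.0958), Mdh2 (-0.162 to 0.077) and the median (-0.1003 to 0.077). For the slope it did so for Idh2 (-0.087 to 0.112), Suclg1 (-0.0453 to 0.0183), Fh1 (-0.0376 to 0.0204) and Mdh2 (-0.0291 to 0.0129), and 0 to 2 genes in all passed. Ogdh stayed positive in every setting run, at 0.24 to 0.32 at 0 g/kg.

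Replicate numbers and library names are not stated to pair samples. Same-numbered libraries deviated together with a correlation of 0.258 in KOPTK1 and of -0.174 to 0.743 between diets. With a replicate block, 8 members and 3705 genes passed in KOPTK1, and 0 members and 0 genes on each diet; Ogdh at 0 g/kg had a limma adjusted p of 0.316.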
